A study of Rattus norvegicus with 17 samples.

Results

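The enteric nervous system is the network of neurons and glia in the wall of the gut. Its cell bodies lie in a plexus between the muscle layers and in a plexus of the submucosa, and their fibres, together with some glia, reach into the mucosa. The genes examined here mark these cells and are 8 of the 35561 gene names on the array. S100b, Gfap and Sox10 are glial genes. Uchl1 (PGP9.5) is found in neurons of most kinds. Vip, Nos1 and Chat mark neurons by the transmitter they use, and Ret is the receptor that neural crest cells need to colonise the gut. Members were chosen by name: each gene probe whose array name, without the suffixes for predicted or mapped genes, equals a member was taken, which gave 10 probes of 41012, with 3 for Ret and 1 for each other gene.

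The samples were colon mucosa from 17 female rats, 8 to 10 weeks old when the experiment began. All carried human HLA-B27 and β2-microglobulin transgenes on an inbred Fisher 344 background, a model in which colitis develops. In the high calcium group 8 rats ate a purified Western-type diet with 120 mmol calcium per kg, and in the low calcium group 9 ate the same diet with 30 mmol calcium per kg and more glucose. No rats without the transgenes were analysed here. Each rat had its own 2-colour array, with its RNA in Cy5 (red) and a pool of all rats in Cy3 (green), so a log2 ratio gives a rat's level relative to the pool. The mucosa was scraped from the colon wall, so a mucosal sample holds no fixed share of submucosa and its plexus.

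On these arrays between 60.0% and 71.9% of probes were well above background in Cy5, by the scanner's own flag, and the median net signal was 96.1 to 130 scanner units. All 13 epithelial marker genes searched for were well above background on at least 8 arrays, as were 11 of 13 smooth muscle genes on the array. The array of high calcium rat 13 stood apart at the dim end. On it 1317 probes were well above background that were so on no other array, against 46 to 308 such probes on each of the other 16 arrays. Bright specks lay beside 2 to 37 spots on 9 arrays (4 high and 5 low calcium), most on those of low calcium rats 11 and 16. They were handled as described under the processing.

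Only 4 of the 8 members gave signals that could be compared. Testing required the Cy5 flag for signal well above background on 8 or more of the 17 arrays. This left 4 of 10 probes, 1 each for Sox10, Chat, Vip and Ret. The other 6 probes, for S100b, Gfap, Nos1, Uchl1 and the other two Ret probes, were not well above background on most arrays. Net signal is the spot's mean less the local background. The 153 negative control spots, which match no rat gene, set the level of unspecific signal: their median net Cy5 signal was 11.2 to 19.1 units by array and their 95th percentile 21.7 to 36.4 units.

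**Figure D1:**
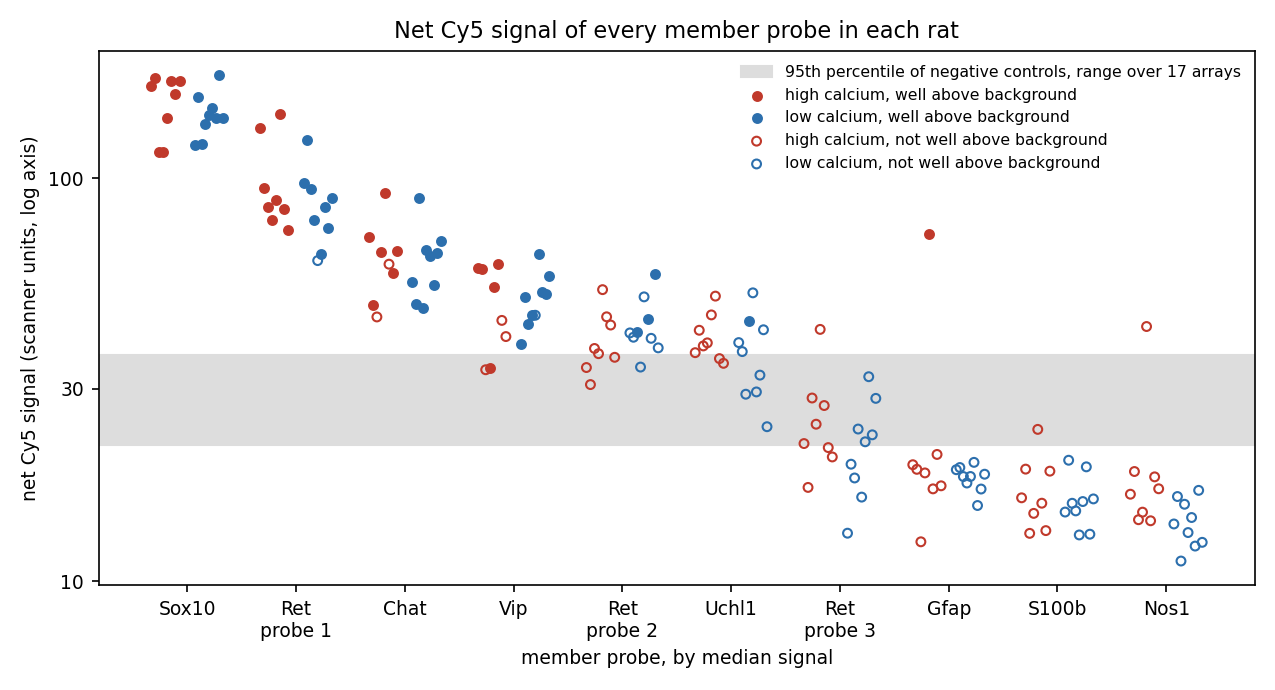
Net Cy5 signal (scanner units, log axis) of each member probe in each rat, high calcium in red and low calcium in blue. Filled points were well above background, and the grey band is the range over arrays of the 95th percentile of negative controls. Sox10 lies between 116 and 180 units in all rats. S100b lies in or under the band in every rat, and Gfap and Nos1 lie under it in every rat but rat 13.

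Sox10, a transcription factor of neural crest cells and glia, was the brightest member. Its probe, A_44_P447394, lies at chr7:117173070-117173129 on the minus strand of rn3, the build the array files use. It was well above background in 17 of 17 rats. The net Cy5 signal had a lowest value of 116, a median of 165 and a highest value of 177 units in high calcium rats, against 121, 141 and 180 units in low calcium rats. Both diets therefore spanned the same range of raw signal.

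As log2 ratios to the pool, Sox10 ran from 0.01 to 0.41 with a median of 0.20 in high calcium rats, and from -0.06 to 0.20 with a median of 0.14 in low calcium rats. High calcium rats 17, 9, 18 and 10 lay above every low calcium rat, and the other 4 overlapped them. The mean log2 ratio was 0.19 ± 0.14 in high calcium rats (SD, n = 8) and 0.11 ± 0.08 in low calcium rats (SD, n = 9). The difference was 0.09 ± 0.06 (SE) on the log2 scale, a fold of 1.06 with a 95% interval of 0.980 to 1.15. It did not pass the test (limma, unadjusted p = 0.135, adjusted p = 0.660).

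Across all 27083 probes tested, limma called 0 at an adjusted p under 0.05, which is 0% of them. The smallest adjusted p was 0.0801. Before adjustment, 2601 probes had p under 0.05, which is 9.6% of those tested (4.43% higher and 5.17% lower in high calcium rats), and 0 of the 4 tested members were among them. The difference was above 0 for 54.2% of all probes and for 3 of 4 members, and the median difference was 0.06 on the log2 scale over the 4 members beside 0.01 over all probes. In whole mucosa, fewer cells of a type and less RNA per cell cannot be told apart.

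**Figure D2:**
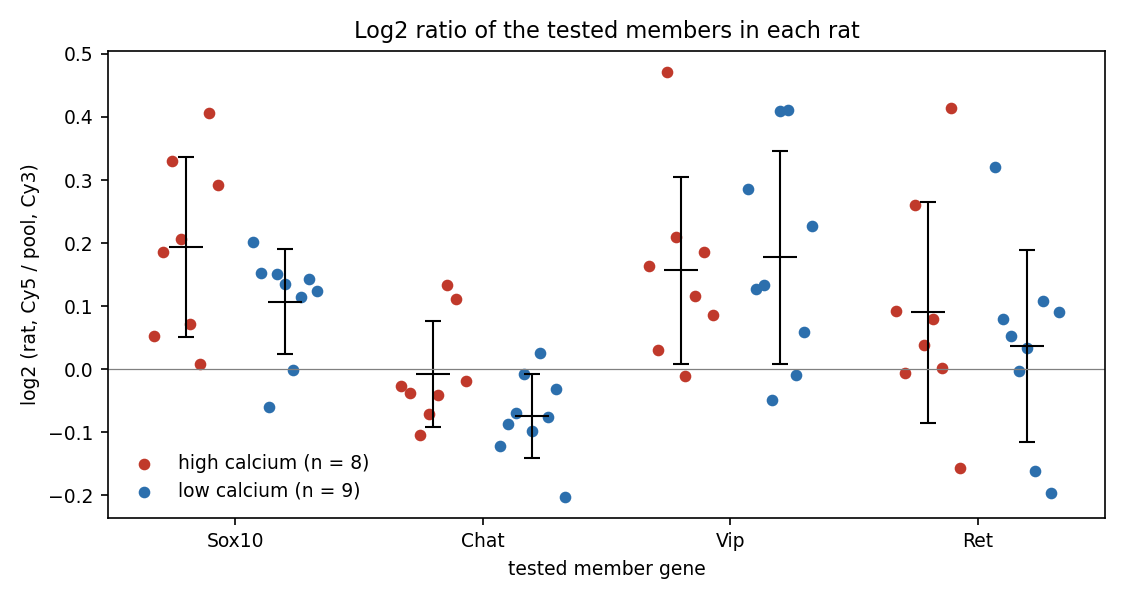
Log2 ratio of rat to pool for the 4 tested members. Each point is 1 rat, with high calcium (n = 8) in red on the left and low calcium (n = 9) in blue on the right of each pair, and black bars give the mean and SD. The diets overlap for all 4 genes, with mean differences between -0.02 and 0.09.

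Chat, choline acetyltransferase, makes acetylcholine, the main excitatory transmitter of enteric neurons. Its probe, A_44_P210502 (chr16:7952407-7952466, minus strand, rn3), was well above background in 6 of 8 high calcium rats and in 9 of 9 low calcium rats. The rats below were high calcium rats 9 and 14. Its net Cy5 signal was 45.3 to 91.8 units (median 63.4) in high calcium rats and 47.6 to 89.1 units (median 64.1) in low calcium rats, so raw signal did not separate the diets.

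The log2 ratio of Chat ran from -0.10 to 0.13 (median -0.03) in high calcium rats and from -0.20 to 0.03 (median -0.08) in low calcium rats. High calcium rats 14 and 17 were above all low calcium rats, and low calcium rats 16 and 1 were below all high calcium rats. The means were -0.01 ± 0.08 in high calcium rats (SD, n = 8) and -0.07 ± 0.07 in low calcium rats (SD, n = 9). The difference of 0.07 ± 0.04 (SE) is a fold of 1.05 with a 95% interval of 0.985 to 1.11 (limma, unadjusted p = 0.133, adjusted p = 0.658). From the Cy5 channel alone, without division by the pool, the difference was -0.01 ± 0.07 (SE, limma adjusted p = 0.990). That reading also used quantile in place of loess normalisation, and the cause of the turned sign was not tested.

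Vip encodes vasoactive intestinal peptide, released by secretomotor and inhibitory motor neurons. Nos1, neuronal nitric oxide synthase, is made in inhibitory motor neurons that often contain the peptide too. Cyclic AMP is known to switch on Vip through a cAMP response element before its start, and the same letters occur in the Nos1 window. Both windows are shown for that reason. They run from 250 bases before to 50 bases after a transcript start in RefSeq (GRCr8), 5′ to 3′ on the gene's strand, at chr1:44470230-44470529 (plus strand) for Vip and chr12:44371788-44372087 (minus strand) for Nos1. Capitals mark TGACGTC on either strand, extended to the full palindrome TGACGTCA where the next base allows.
Vip: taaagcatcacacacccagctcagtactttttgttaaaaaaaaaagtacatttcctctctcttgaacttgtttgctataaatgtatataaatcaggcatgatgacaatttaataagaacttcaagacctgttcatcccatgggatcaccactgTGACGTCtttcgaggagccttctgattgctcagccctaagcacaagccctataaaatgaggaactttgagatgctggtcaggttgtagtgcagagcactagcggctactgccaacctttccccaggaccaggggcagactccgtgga
Nos1: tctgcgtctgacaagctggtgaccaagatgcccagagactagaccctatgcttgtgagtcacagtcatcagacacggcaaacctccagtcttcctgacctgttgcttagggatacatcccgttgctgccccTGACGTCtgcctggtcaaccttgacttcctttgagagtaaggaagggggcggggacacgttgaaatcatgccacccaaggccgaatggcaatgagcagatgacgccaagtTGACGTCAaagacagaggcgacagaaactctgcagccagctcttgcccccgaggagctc
The Vip start used for the window lies 248 bases inside the outermost bound of the gene, and the Nos1 start lies 84534 bases inside it, so the Nos1 window is that of an internal start. The match begins 97 bases before that start in Vip, and 119 and 9 bases before it in Nos1. TGACGTC or its reverse complement GACGTCA stood in 3.22% of 33469 rat windows of this length, and in 2 of the 7 member windows that the table holds. The full palindrome TGACGTCA, which contains the shorter motif, stood in 1.83% of all windows and in 1 member's, that of Nos1. The member windows were 44% to 74% G or C, with Vip lowest and Ret highest, and 6 of 7 were above the median of 51.7% over all windows. These matches are a description of the letters and no binding was measured.

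The Vip probe, A_42_P719221 (chr1:36372337-36372396, plus strand, rn3), was well above background in 5 of 8 high calcium rats and in 8 of 9 low calcium rats. The rats below were high calcium rats 9, 17 and 18 and low calcium rat 7. The net Cy5 signal was 33.5 to 61.4 units (median 49.0) in high calcium rats and 38.7 to 64.7 units (median 50.7) in low calcium rats. Raw signal overlapped almost completely between the diets.

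The Vip log2 ratio ran from -0.01 to 0.47 (median 0.14) in high calcium rats and from -0.05 to 0.41 (median 0.13) in low calcium rats. It was highest in high calcium rat 9, followed by low calcium rats 8 and 7. The means were 0.16 ± 0.15 in high calcium rats (SD, n = 8) and 0.18 ± 0.17 in low calcium rats (SD, n = 9), a difference of -0.02 ± 0.07 (SE). As a fold this is 0.986 with a 95% interval of 0.888 to 1.09 (limma, unadjusted p = 0.778, adjusted p = 0.959). The sign was not stable: the difference turned positive on leaving out rat 13 (0.0032), rat 7 (0.0084) or rat 8 (0.0086).

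The pool's signal for Vip was close to unspecific signal. Its net Cy3 signal was above that array's 95th percentile of negative controls on only 7 of 17 arrays, against 17 of 17 for Sox10 and 16 of 17 each for Chat and Ret. Across the rats the Vip ratio was lower where the negative controls were brighter in Cy3: after subtracting each diet's mean, Pearson's r was -0.73 (permutation p = 0.0009, adjusted p = 0.018 over 20 relations) and Spearman's rho was -0.65 (permutation p = 0.0052, adjusted p = 0.104). Without the 2 arrays farthest from the median of the Cy3 controls, r was -0.46, so the strength rests partly on those arrays. With Vip taken from Cy5 alone, r was 0.30. With slide means subtracted as well, r was -0.79, and no slide holds over 4 arrays, too few for a value in each. In that setting r was also away from 0 outside Vip and Cy3, but its p values are too small and decide nothing. The permutations exchanged rats freely between slides, and low calcium rat 1, alone on its slide, was left with no deviation. With the Cy3 controls and slide means subtracted, r was -0.69 for Ret (permutation adjusted p = 0.0103), -0.53 for Sox10 (0.100) and 0.25 for Chat. Without slide means subtracted, these were -0.46, -0.14 and 0.10. With the Cy5 controls, Vip had r = -0.57 (permutation adjusted p = 0.142), and -0.71 with slide means subtracted (0.0103). Also with slide means subtracted, Vip had r = 0.62 with the mean of the enteroendocrine list below and 0.62 with that of the epithelial list. The permutation adjusted p was 0.0327 for each. Without slide means subtracted, r was 0.46 and 0.44 (permutation adjusted p = 0.310 for each).

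**Figure D3:**
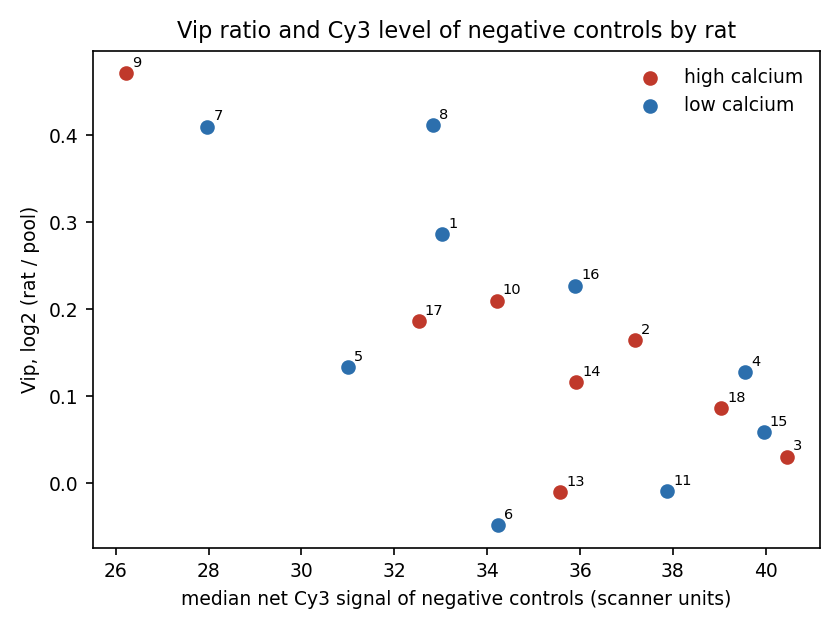
Vip log2 ratio of each rat against the median net Cy3 signal of the negative controls on the same array, with rat numbers. High calcium rats are red and low calcium rats blue. Rats 9 and 7 have the lowest control signal and high Vip ratios (0.47 and 0.41).

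Ret is the signalling receptor for GDNF and its relatives. Of its 3 probes, A_44_P308662 (chr4:154693062-154693121, minus strand, rn3) was well above background in 8 of 8 high calcium rats and 8 of 9 low calcium rats, all but rat 7. Its net Cy5 signal was 74.2 to 144 units (median 86.5) in high calcium rats and 62.5 to 124 units (median 85.0) in low calcium rats. The log2 ratio ran from -0.16 to 0.41 (median 0.06) in high calcium rats and from -0.20 to 0.32 (median 0.05) in low calcium rats, and the diets overlapped over nearly the whole range.

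The mean Ret ratio was 0.09 ± 0.17 in high calcium rats (SD, n = 8) and 0.04 ± 0.15 in low calcium rats (SD, n = 9). The difference was 0.05 ± 0.07 (SE), a fold of 1.04 with a 95% interval of 0.933 to 1.15 (limma, unadjusted p = 0.472, adjusted p = 0.866). High calcium rat 17 carried most of it: the difference without that rat was 0.01. The second probe, A_44_P153972 (chr4:154704854-154704913), was well above background only in low calcium rats 5, 8 and 15. The third, A_44_P480153 (chr4:154713276-154713335), was so in no rat. Both lie on the minus strand of rn3, and neither was tested.

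The remaining members were close to unspecific signal. Uchl1 (A_44_P281035, placed by the array file between 44120096 and 44121087 of chromosome 14, rn3) was well above background in 1 rat, low calcium rat 6. Its net Cy5 signal was 34.7 to 51.0 units in high calcium rats and 24.2 to 51.9 units in low calcium rats, above the 95th percentile of negative controls on 17 of 17 arrays but without the scanner's flag on 16. Uchl1 RNA was thus near the limit of what these arrays register.

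S100b, Gfap and Nos1 were each printed 10 times per array, which gave 170 spot readings per gene. S100b encodes a calcium-binding protein of glia. Its probe (A_43_P15530, chr20:12792126-12792185, minus strand, rn3) had 2 of 170 readings well above background, and its median net signal was 13.2 to 23.8 units in high calcium rats and 13.0 to 20.0 units in low calcium rats. In no rat did that median exceed the 95th percentile of negative controls. S100b was therefore not detectable in either diet at this signal.

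Gfap is the intermediate filament of glia. Its probe (A_44_P464502, chr10:92075205-92075264, minus strand, rn3) had 10 of 170 readings well above background, and all 10 came from high calcium rat 13. The median net Cy5 signal was 72.6 units in rat 13 (10 spots between 59.2 and 87.9 units), against 12.5 to 20.6 units in the other 16 rats. Nos1 (A_44_P473047, chr12:39674311-39674370, minus strand, rn3) had its highest signal in the same rat, 42.9 units against 11.2 to 18.7 units in the others, with 3 of its 10 spots there well above background.

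Rat 13 is also the array on which many other dim probes were raised. Its 5th percentile of net Cy5 signal over all gene spots was 24.5 units, the highest of the 17 arrays, whose median was 13.4 units. For Gfap the pool's Cy3 signal was raised on that array too, to 58.4 units against 20.0 to 43.9 units on the others. After normalisation the log2 ratio of Gfap in rat 13 was 0.01. For Nos1 the Cy3 signal there was 40.2 units, within the 25.2 to 43.6 units of the others. Its log2 ratio in rat 13, 0.10, was the highest of the 17 rats. The part of the whole array in the Gfap and Nos1 signals of rat 13 was not tested.

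With no filter on dim probes, limma over all 41012 probes gave the 6 dim member probes differences between -0.05 and 0.03 on the log2 scale, with a smallest unadjusted p of 0.421 and a smallest adjusted p of 0.928. No fold is given for these probes, because too few arrays flagged them as well above background. For the tested members the 95% intervals of the ratio, given above, lay between 0.888-fold and 1.15-fold. Those ratios include unspecific signal and an offset of 50 units, which draw dim probes toward 1. Other background handling gave larger differences that did not pass: Chat differed by 0.14 ± 0.07 with no offset and by 0.37 ± 0.19 with the scanner's processed signals (SE, limma adjusted p = 0.587 and 0.534). Sox10 differed by 0.14 ± 0.09 with no offset (SE, limma adjusted p = 0.660), and Ret by 0.15 ± 0.08 in the deposited matrix (SE, limma adjusted p = 0.624).

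The 4 slides that carried both diets, each with 2 high and 2 low calcium rats, did not give 1 direction. Within slides the Sox10 difference ran from -0.03 to 0.22 on the log2 scale and was positive on 2 of 4 slides. The Chat difference ran from -0.05 to 0.11 and the Ret difference from -0.04 to 0.17, each positive on 3 of 4 slides. For Vip it ran from -0.36 to 0.30 and was positive on 2 of 4. With slide as a block in the model, the differences passed in 0 of the 4 genes.

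No pair of tested members was found to vary together from rat to rat. Among the 6 pairs, after subtracting each diet's mean, Pearson's r over 17 rats ran from -0.22 for Vip and Chat to 0.44 for Sox10 and Ret. The Sox10 and Ret pair had a permutation p of 0.076 and an adjusted p of 0.456, with Spearman's rho at 0.33 (permutation p = 0.197, adjusted p = 0.416). Without the 2 rats with the most distant Sox10 values (14 and 17), r was 0.21, and from Cy5 alone it was -0.31. Other settings moved other pairs away from 0. Without the rats with the most distant Chat values, again 14 and 17, r of Chat and Ret was -0.55, beside -0.19 with all rats (permutation adjusted p = 0.190 and 0.477). With slide means subtracted as well, r of Sox10 and Vip was 0.49, beside 0.19 (permutation adjusted p = 0.275 and 0.477). After adjustment 0 of the 6 pairs passed.

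For each tested member the named genes with the most similar ratios over the 17 rats, after subtracting each diet's mean, were found among 9724 probes. For Sox10 these were Appbp2 (r = 0.81), Pafah2 (0.79) and Mnt (0.78). For Vip they were Pias4 (0.88), Ssh2 (0.86) and Grip2 (0.84). For Chat they were Bdkrb2 (0.75), Lgals2 (0.73) and Ptpn14 (0.73), and for Ret they were Cebpe (0.86), Luc7l2 (0.86) and Fyttd1 (0.85). These values describe the best matches of a large search and share arrays and dyes. When both genes were read from Cy5 alone, r stayed high for Mnt (0.82) and was 0.55 or lower for the other 11.

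Genes around the members were counted in 5 lists: glia and Schwann cells, neurons in general, transmitters, their receptors, and the GDNF and endothelin-3 pathways. They hold 92 genes on the array, of which 63 were tested and 29 were not well above background on enough arrays. Limma called 0 of the 63. Before adjustment, 7 of 63 had p under 0.05, or 11.1%, beside 9.6% of all probes, while 39 were higher and 24 lower in high calcium rats. Their share was near that of the whole array.

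**Figure D4:**
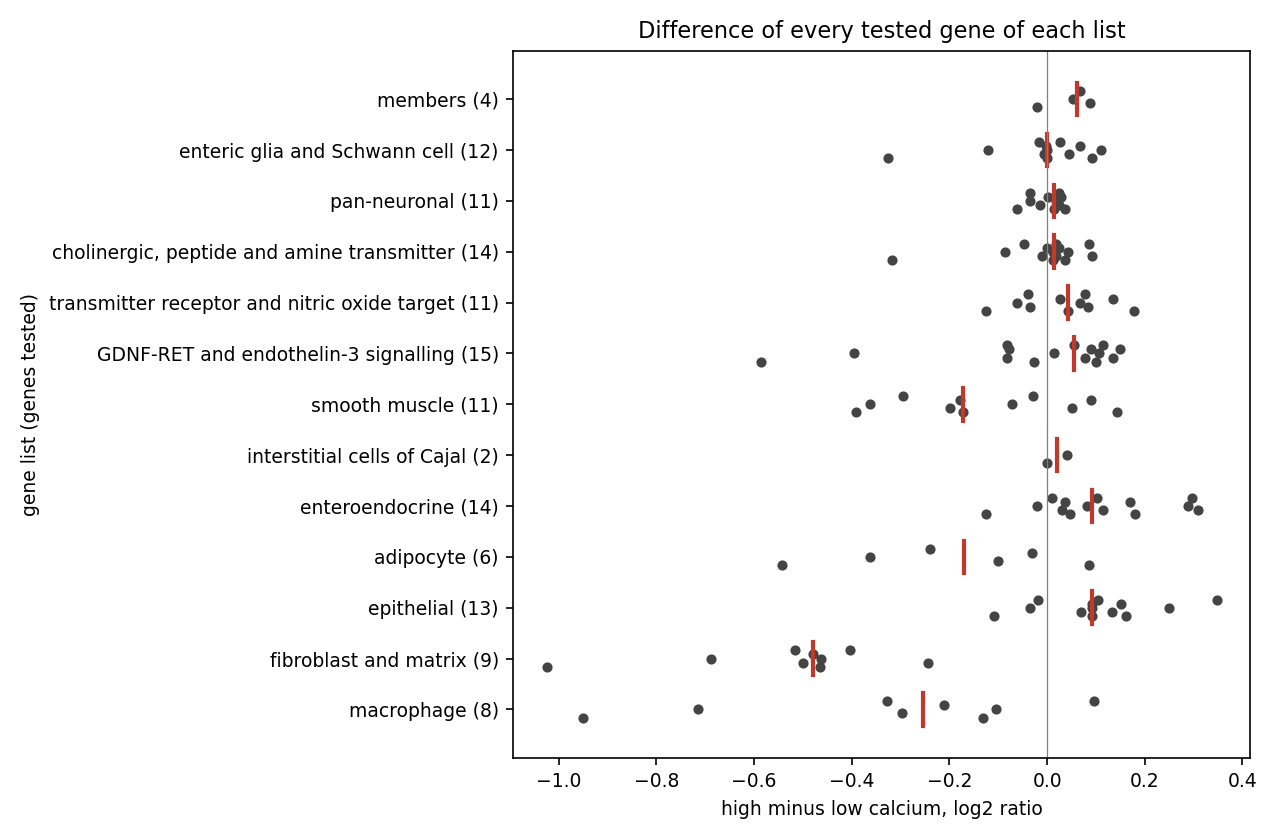
High minus low calcium difference (log2 ratio) of every tested gene in each list, with the number tested in brackets. Each point is 1 gene and red bars are list medians. The neural lists centre near 0, while the fibroblast and matrix list has a median of -0.48. All lists were chosen with earlier results of these data known.

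Among the 12 glial and Schwann cell genes tested, 7 were higher and 5 lower, with a median difference of 0.00. Gpm6b, a membrane protein of glia and neurons, had the smallest p. Its log2 ratio ran from -0.70 to 0.17 (median -0.06) in high calcium rats and from -0.01 to 0.36 (median 0.19) in low calcium rats, and 5 high calcium rats were below every low calcium rat. The difference was -0.33 ± 0.10 (SE, limma adjusted p = 0.202). Cdh2, N-cadherin, differed by -0.12 ± 0.05 (SE, adjusted p = 0.422).

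Of 21 general neuronal genes on the array 11 were tested, and 0 had an unadjusted p under 0.05. Of these 7 were higher and 4 lower, and the median difference was 0.02. Elavl2, an RNA-binding protein of neurons, had the smallest p, with a difference of -0.06 ± 0.05 (SE, limma adjusted p = 0.753). The other 10 genes, among them Stmn2, Gap43 and the neurofilament genes Nefl and Nefm, were not well above background on enough arrays.

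Of the 14 transmitter genes tested 9 were higher and 5 lower. Ache, which breaks down acetylcholine, differed by 0.09 ± 0.04 (SE, limma adjusted p = 0.499), though its 2 tested probes differed in sign. Calcb, a calcitonin gene-related peptide, differed by -0.32 ± 0.17 (SE, adjusted p = 0.567), and its log2 ratio ran from -0.59 to 0.92 among low calcium rats alone. Tac1, the substance P precursor, differed by 0.00 ± 0.17 (SE).

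Of the 11 receptor genes tested 7 were higher and 4 lower. Chrm3, the muscarinic receptor that answers acetylcholine on epithelium and muscle, ran from -0.01 to 0.39 (median 0.16) in high calcium rats and from -0.15 to 0.22 (median 0.01) in low calcium rats. In 3 high calcium rats it was above every low calcium rat. Its difference was 0.18 ± 0.06 (SE, limma unadjusted p = 0.0099, adjusted p = 0.315). P2ry1, a receptor for purine transmitters, differed by 0.14 ± 0.07 (SE, adjusted p = 0.552). Vipr1, the receptor for the Vip peptide on colonic epithelium, differed by 0.03 ± 0.07 (SE), and Vipr2 by -0.13 ± 0.07 (SE).

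The largest differences among the 63 genes of these lists were those of Ednrb and Nrg1. Ednrb, the endothelin receptor that enteric neural crest cells need and that other cells of the gut wall also carry, ran from -0.70 to 0.22 (median -0.24) in high calcium rats and from -0.02 to 0.80 (median 0.30) in low calcium rats. In 6 high calcium rats it was below every low calcium rat. The mean was -0.25 ± 0.32 in high calcium rats (SD, n = 8) and 0.34 ± 0.26 in low calcium rats (SD, n = 9), a difference of -0.59 ± 0.12 (SE, limma adjusted p = 0.0858). It passed on leaving out high calcium rat 3 (-0.65, adjusted p = 0.0133) or low calcium rat 16 (-0.62, adjusted p = 0.0447) and with array weights (-0.63, adjusted p = 0.0344). In those refits 273, 73 and 87 of all probes tested passed, against 0 in the main fit. Ednrb did not pass with slide as a block (adjusted p = 0.160) or by the exact permutation test (adjusted p = 0.305). By that permutation test 0 probes passed, and the smallest adjusted p over all probes was 0.237. With the smooth muscle list mean as covariate the Ednrb difference was -0.37 (limma adjusted p = 0.748).

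Nrg1, a growth factor for glia and Schwann cells, had a mean of -0.08 ± 0.34 in high calcium rats (SD, n = 8) and 0.31 ± 0.17 in low calcium rats (SD, n = 9). Its difference was -0.39 ± 0.11 (SE, limma adjusted p = 0.189). Without high calcium rat 3, where 273 probes passed, it was -0.47 (limma adjusted p = 0.0242). It did not pass with slide as a block (adjusted p = 0.308) or by the exact permutation test (adjusted p = 0.376), and with the smooth muscle covariate it was -0.21 (limma adjusted p = 0.999). Gdnf and Nrtn, ligands that act through Ret, differed by 0.15 ± 0.12 and -0.08 ± 0.07 (SE). The Ret co-receptors Gfra1, Gfra2 and Gfra3 differed by 0.01 ± 0.05, 0.09 ± 0.05 and 0.05 ± 0.05 (SE). Frs2, of the same list, was higher in high calcium rats by 0.11 ± 0.04 (SE, limma unadjusted p = 0.0285, adjusted p = 0.444). Of the 15 tested genes of this list 9 were higher and 6 lower, with a median of 0.05.

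**Figure D5:**
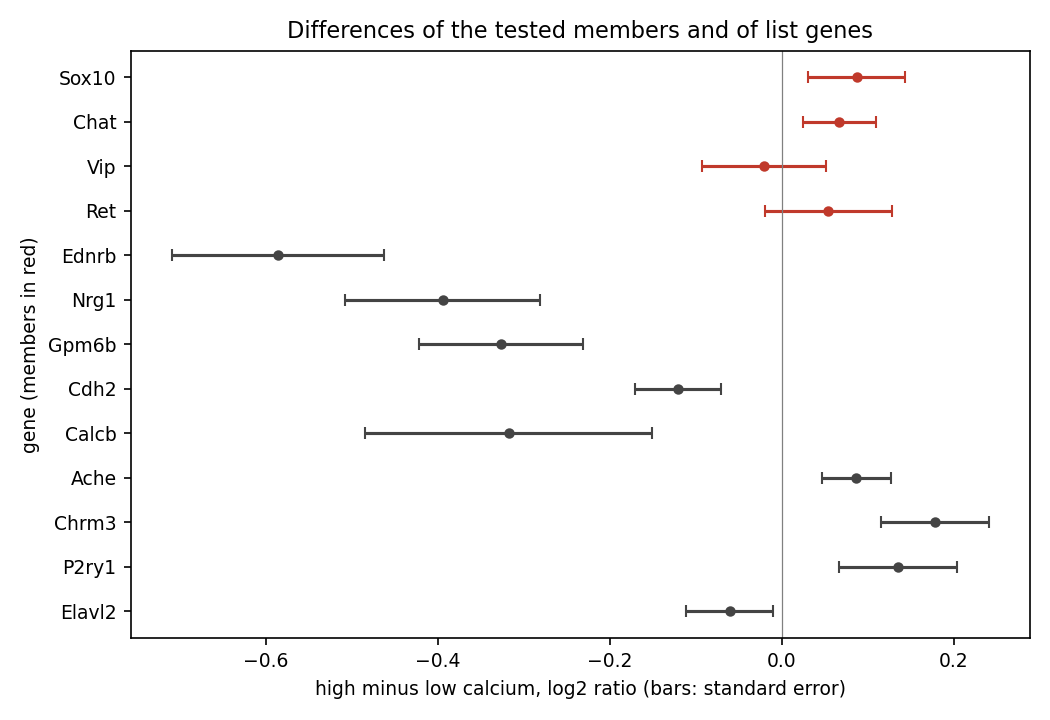
High minus low calcium difference (log2 ratio) with its standard error for the 4 tested members (red) and for list genes (grey). The list genes had the smallest p of each of the 5 neural lists, up to 0.245 for Elavl2 (limma, unadjusted). Frs2 is not shown. Ednrb (-0.59) and Nrg1 (-0.39) lie farthest from 0, and the members between -0.02 and 0.09.

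Lists for other cells of the gut wall were counted the same way, and several had larger medians. All 9 tested fibroblast and matrix genes were lower in high calcium rats at an unadjusted p under 0.05, with a median of -0.48, and 5 of 8 macrophage genes were, with a median of -0.25. At that level 4 smooth muscle genes were lower and 1 higher, 3 adipocyte genes were lower, and 4 enteroendocrine genes were higher. The epithelial list had 0 such genes. Over all probes tested, 5.17% were lower and 4.43% higher at that level, and 54.2% had a difference above 0. The lists were chosen with earlier results of these data known, so their counts are a description and not a test. The smooth muscle list had a median of -0.17, with 8 of 11 genes lower; it was -0.10 without low calcium rat 8 and with each gene read as the mean of its tested probes, and -0.09 with normexp fitted on all spots. The 6 adipocyte genes tested had a median of -0.17. The enteroendocrine list had a median of 0.09 with 12 of 14 genes higher, the epithelial list 0.09 with 10 of 13 higher, and the 2 genes for interstitial cells of Cajal 0.02. After adjustment over all probes 0 genes of these lists passed.

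Smooth muscle lies beside the plexuses, and no relation between its genes and the members passed. The per-rat mean of the smooth muscle list ran from -0.29 to 0.11 in high calcium rats and from -0.23 to 0.16 in low calcium rats. Its Pearson r with the 4 members, after subtracting diet means, was -0.14 for Sox10, 0.23 for Vip, -0.05 for Chat and 0.14 for Ret (n = 17, permutation adjusted p between 0.667 and 0.898 over 20 relations). Spearman's rho was -0.17, 0.06, -0.03 and 0.15 (permutation adjusted p between 0.779 and 0.912), and without the 2 most distant rats r was -0.13, 0.33, 0.09 and 0.05. With the members read from Cy5 alone, r was -0.31 for Sox10, 0.48 for Vip, -0.51 for Chat and 0.23 for Ret. How much muscle or submucosa each scraping held was not tested further.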

How the data were processed

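RNA from colon mucosa of 17 rats was measured on 2-colour Agilent arrays without dye swaps. Spot intensities and flags were read from the deposited scanner files, which their file headers credit to Agilent Feature Extraction 9.5.1.1 (9.5 in the submitters' processing notes). A deposited matrix of log2 values has every array median at 8.76 (how it was made: not given in the sources used here). It followed the log2 ratio of the 2 dyes (r = 0.980 across features and arrays, after centring), held 3 of 10 member probes and served as an alternative. Of its columns 0 were unused. Gene names are those of the array.

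Background was corrected by normexp (offset 50), followed by loess, in limma 3.58.1 under R 4.3.3, with control and flagged spots at weight 0. Fitted on all spots, normexp was drawn by bright specks on the arrays of rats 8, 11 and 16, where it added 215, 1200 and 586 units to the median Cy5 signal, against 44.5 to 76.2 on the others. Spots whose local background was over 2 times the array's median (0 to 37 per array) were therefore set to missing, with the array's median background in the fit, after which it added 44.5 to 54.4 units. This choice was made after seeing the data. Spots of a probe were averaged.

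Groups came from sample titles and were compared with lmFit and eBayes, two-sided, with Benjamini-Hochberg adjustment over all 27083 probes tested and a threshold of 0.05. Rats are separate animals by their labels. A listed gene was read from its brightest tested probe. Correlations used 100000 permutations. On simulated data with 26927 probes, the fit called 50.7%, 94% and 100% of probes changed by 0.25, 0.5 and 1 on the log2 scale. It also called 5 unchanged probes. The simulated noise was drawn separately for each probe, without the variation that real probes share by array or slide. These shares therefore do not give the power of the tests on the rats. Intervals are for the mean difference and use limma's standard error, which draws on the variance of all probes tested. They do not give the range of single rats, and the number of arrays limits precision. All members, up to 4 genes of each list by p, and the 3 named genes most like each tested member could be named; some are not reported here. Members and lists were chosen with earlier results of these data known. Promoter sequences are RefSeq's (GRCr8), found for 7 of 8 members. Alternatives covered background, normalisation, filter, model and leaving out each rat.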

Additional observations from a re-analysis of the deposited data

Results flagged for a closer look

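In 28 groups of values (the net Cy5 signal of each member probe and the log2 ratio of each tested one, by diet), 4 had a sample far from the rest. Chance gives about 1 in 20 groups where values are normal and groups separate. These groups share arrays and the net signals were not on a log scale, so that rate is only a rough guide. High calcium rat 13 stood apart in net Cy5 signal for Gfap, at 72.6 units with the next rat at 20.6, for Nos1, at 42.9 units with the next at 18.7, and for the Ret probe A_44_P480153, at 42.2 units with the next at 28.5. On that array 1317 probes were well above background that were so on no other. High calcium rat 9 stood apart in the Vip log2 ratio, at 0.47 with the next rat at 0.21. Its net Cy5 signal for Vip, 33.5 units, was the lowest of all rats, and its Cy3 signal of 18.1 units was too.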

How the results depend on the processing

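The 4 tested members were refitted 120 times, and 0 refits passed (smallest adjusted p 0.401). Chat with no background correction alone had an unadjusted limma p under 0.05 (0.0299, limma adjusted p = 0.447). Vip turned positive with no background correction (0.0104), scanner processed signals (0.0091), the smooth muscle mean as covariate (0.0169) and normexp on all spots (0.0400, added after seeing the data); Chat turned negative in Cy5 alone (-0.0080). Leaving out 1 rat gave 0.0568 to 0.114 for Sox10, 0.0470 to 0.0809 for Chat, 0.0080 to 0.0896 for Ret and -0.0656 to 0.0086 for Vip. Array weights called 87 probes, and leaving out 1 rat called 0 to 273 (273 without rat 3, 73 without rat 16, otherwise 0). The exact permutation test over 24310 assignments called 0, with 2491 probes under 0.05 unadjusted. The smooth muscle covariate cut probes at an unadjusted p under 0.05 to 1063 and moved that list's median to -0.0164, as it removes the list's own mean; the adipocyte median was -0.455 with processed signals and the GDNF and endothelin median 0.0090 in Cy5 alone. The r of Sox10 and Chat was 0.0035 uncentred, and that of Sox10 and Ret -0.314 in Cy5 alone; the causes were not tested. No paired analysis was possible because the rat numbers are not shared between diets; slide was fitted as a block instead.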
